A study of Mus musculus with 2 samples.

Results

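Ribosomal protein pseudogenes are genomic copies of the messenger RNAs of ribosomal protein genes. All genes of the deposited table whose symbol starts with Rpl or Rps and contains "-ps" were taken, which gave 300 of 54531 genes. Each was set against the parent gene named in its symbol. The 300 copies fell into 62 families on 20 chromosomes. The GENCODE M21 annotation lists 287 of them as processed pseudogenes, 7 as transcribed processed pseudogenes and 6 as protein-coding.

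RNA was sequenced from bone marrow haematopoietic stem cells (HSCs), the cells that renew the blood, of mice with floxed alleles of Angptl2, the gene of a secreted angiopoietin-like glycoprotein. The control library was labelled Angptl2fl/fl and the deletion library Cdh5-Cre;Angptl2fl/fl, in which Cre recombinase is driven by the promoter of the endothelial cadherin gene. The labels describe the second genotype as an endothelial deletion. Whether the sequenced HSCs themselves kept Angptl2 was not tested. The control's other label names Cdh5 and Cre and no floxed allele, so whether the control mice carried Cre is not settled by the labels. There was 1 library per genotype, and the number of mice behind each, their age and the sort markers were not stated (not given in the sources used here). Every difference below is between 2 libraries, with no replicate check and no test, and an interval covers counting error only. Differences in the number of cells of a type and in RNA per cell cannot be told apart in such bulk samples.

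A processed pseudogene arises when a messenger RNA is reverse-transcribed and inserted back into the genome, so it lacks the introns and usually the promoter of its parent. Ribosomal protein messages are short and abundant, and they have left more such copies in mammalian genomes than most other genes. A young copy can match its parent base for base, and a sequencing read from the parent's message then fits both places. A value listed on such a copy therefore counts the reads assigned to it and need not be its own transcription.

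The values were FPKM, fragments per kilobase of exon scaled to the number of mapped fragments. Dividing out exon lengths recovered whole fragment numbers, at a depth of 17378600 fragments in the control and 16843100 in the deletion library. The most frequent fragment number per gene was 1 in the control but 6 in the deletion library, where 295 genes had 1 fragment and 461 had 6. Intervals of ratios are therefore also given after dividing the fragments of both libraries by 6, a choice made after the data were seen. Angptl2 itself was listed at 0.265 FPKM (29 fragments) in the control and 0.179 (19 fragments) in the deletion library. The 10 HSC and progenitor markers summed to 154.62 FPKM in the control and 138.21 in the deletion library, and 9 of the 10 were at 1 FPKM or more in each. Markers of other cells were present: 9 neutrophil and monocyte genes summed to 3243.62 and 3241.74 FPKM, and 5 erythroid genes to 1637.95 and 1932.62. Within these sums genes went both ways: Mpo had 281 and 723 FPKM and Elane 423 and 1084, while the other 7 neutrophil and monocyte genes were lower in the deletion library, such as Ngp (455 and 175) and Lyz2 (242 and 86.1). Of the erythroid genes Car1 had 1315 and 1629 FPKM and Klf1 176 and 191, and Hbb-bt, Hba-a1 and Alas2 were lower. Sums were 29.06 and 25.96 FPKM for 5 B and plasma cell genes, 5.79 and 5.4 for 4 endothelial genes (of which 1 was at 0 in the deletion library), and 47.12 and 130.74 for 3 megakaryocyte genes. Mitochondrially encoded genes took 8.91% of the FPKM total in the control and 13.73% in the deletion library. The part of the other cell types in the results below was not tested, and values with another scaling are given for the mitochondrial share.

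How alike the copies are to their parents is shown first for 3 parents, because the values below turn on single bases. The sequences are GENCODE M21 transcripts (GRCm38), 5′ to 3′, and the letters are those of the reference, not of the mice sequenced. Capitals mark bases at which a shown copy differs from its parent, and positions count from 1 at the A of the parent's start codon. Rps16 (chr7:28350652-28353155, + strand) encodes a protein of the small subunit. Its copy Rps16-ps2 (chr5:129128077-129128517, − strand) had no differing base along its whole length, here shown for coding bases 1 to 90.
Rps16: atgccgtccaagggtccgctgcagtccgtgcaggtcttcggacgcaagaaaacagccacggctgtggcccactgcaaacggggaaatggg
Rps16-ps2: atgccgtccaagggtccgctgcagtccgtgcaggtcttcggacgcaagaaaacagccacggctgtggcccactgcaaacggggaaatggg

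Rps10 (chr17:27630418-27636669, − strand) encodes another small-subunit protein. Its copies Rps10-ps2 (chr16:20822145-20822640, − strand) and Rps10-ps1 (chr3:95622278-95622772, + strand) are shown for coding bases 381 to 480, which hold all 5 substitutions of Rps10-ps2 (T393C, T408C, C437G, A438G and G473A). Rps10-ps1 shares A438G and adds G418A here.
Rps10: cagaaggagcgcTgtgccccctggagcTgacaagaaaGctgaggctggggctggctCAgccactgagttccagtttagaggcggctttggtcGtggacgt
Rps10-ps2: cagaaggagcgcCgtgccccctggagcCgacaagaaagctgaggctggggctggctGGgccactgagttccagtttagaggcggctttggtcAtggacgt
Rps10-ps1: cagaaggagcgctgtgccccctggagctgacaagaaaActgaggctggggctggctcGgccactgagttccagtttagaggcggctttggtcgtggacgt

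Rpl30 (chr15:34440505-34443640, − strand) encodes a large-subunit protein. Of its copies, 4 carry values in both libraries: Rpl30-ps10 (chrX:71803688-71804034, + strand), Rpl30-ps1 (chr6:38376807-38377154, + strand), Rpl30-ps8 (chr12:99047230-99047574, + strand) and Rpl30-ps9 (chrX:105278637-105278981, − strand). A further copy with another kind of symbol, Gm12191 (chr11:49678710-49679057, − strand), is not one of the 300. All of them share the substitution G96A.

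Rpl3 (chr15:80077791-80091868, − strand) encodes the protein next to the peptidyl transferase centre. Its 2 copies, Rpl3-ps1 (chrX:13202571-13203780, + strand) and Rpl3-ps2 (chrX:74170653-74171866, + strand), share T786C, shown within coding bases 737 to 836.
Rpl3: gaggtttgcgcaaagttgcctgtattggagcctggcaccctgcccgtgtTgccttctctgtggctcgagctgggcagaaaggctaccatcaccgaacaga
Rpl3-ps1: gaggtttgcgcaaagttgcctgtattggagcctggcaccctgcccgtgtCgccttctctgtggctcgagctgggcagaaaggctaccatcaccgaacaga
Rpl3-ps2: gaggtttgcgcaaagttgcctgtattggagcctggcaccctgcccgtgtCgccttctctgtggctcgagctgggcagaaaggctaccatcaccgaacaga

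Many of the copies had no reads assigned to them. At 0 in both libraries were 152 of the 300 pseudogenes, against 31528 of 54531 over all genes. Of the other 148 pseudogenes, 120 were above 0 in both, 17 in the control library alone and 11 in the deletion library alone. A mean of at least 1 FPKM over the libraries was reached by 80 (26.7%), against 633 of 9491 (6.67%) of the other processed pseudogenes in the table. Over all genes, 12325 of 54531 (22.6%) reached that mean, near the members' share. All 83 genes of a list of cytosolic ribosomal proteins reached it. The other processed pseudogenes, here and below, include ribosomal protein copies with another kind of symbol, such as Gm12191. Of the 80, 39 were at 10 FPKM or more and 18 at 100 or more. The members summed to 5689.0 FPKM in the control and 6731.9 in the deletion library, which was 1.501% and 1.603% of each library's FPKM total. The 10 highest held 75.3% of all fragments on pseudogenes in the control and 73.5% in the deletion library.

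The level of a pseudogene followed its likeness to the parent. Of the 300, 292 could be aligned over at least 50% of the parent's coding sequence, 6 aligned over less, and Rps4l-ps and Rpl48-ps1 had no parent with a coding transcript to align to. Identity ran from 68.1% to 100%, with a median of 96.3%. Only 2 of 59 copies under 90% identity reached 1 FPKM, 3 of 64 between 90% and 95%, 4 of 40 between 95% and 97%, and 18 of 69 between 97% and 99%. Above that the share was much larger, with 39 of 46 copies between 99% and 100%, and 13 of 14 with no mismatch or gap. Spearman's rank correlation of identity with mean FPKM was 0.74 over the 292 copies, given as a description because copies of one family share a parent, its reads and both libraries. Among the 60 copies at 99% or more, 2 were listed at 0 in both libraries: Rps23-ps1, which has no mismatch to its parent and whose exon overlaps one of Gm5148, and Rps23-ps2, at 99.5%, whose exon overlaps one of C330021F23Rik.

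**Figure D1:**
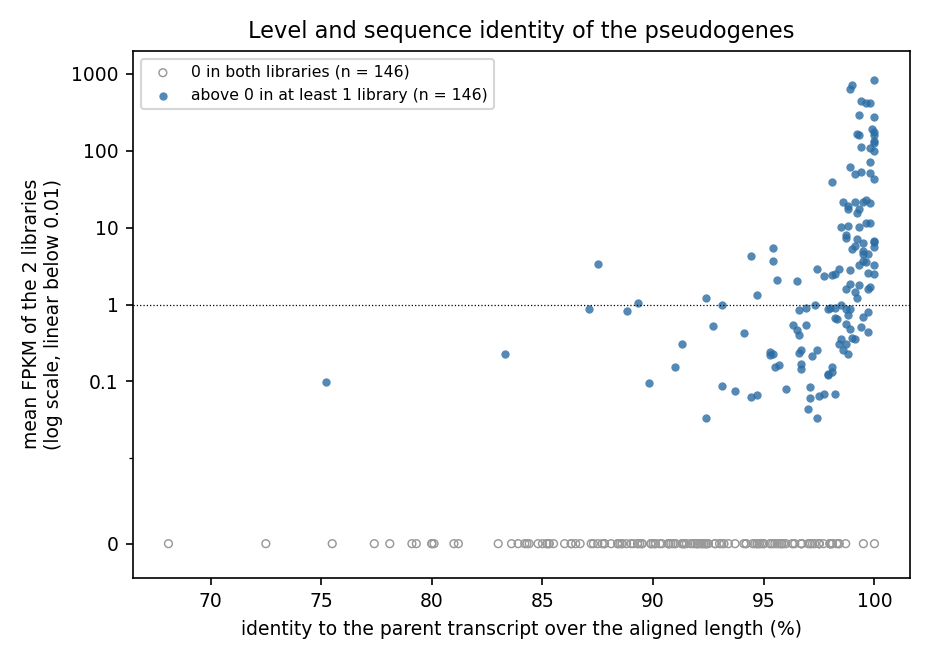
Identity to the parent transcript (horizontal axis, percent) against the mean FPKM of both libraries (vertical axis, log scale, linear below 0.01) for the 292 pseudogenes aligned over at least 50% of the parent's coding sequence. Filled points are the 146 copies above 0 in at least 1 library, open circles the 146 at 0 in both, and the dotted line is 1 FPKM; all 39 points at 10 FPKM or more lie at 98.1% identity or more.

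The same order was seen in windows of 150 bases, the length of 1 read. Every window of 13 pseudogenes also occurred in the parent's transcripts, and 12 of these reached 1 FPKM, with a median level of 100.3 FPKM over the 13. Some windows were shared in 81, of which 52 reached 1 FPKM, and none in 206, of which 16 did. In the last group 149 of 206 were at 0 in both libraries. No window unique to the pseudogene among all annotated transcripts was found in 30 members. No single read inside these can be assigned to a single gene by sequence alone. Transcripts of genes that overlap a member at its own place in the genome were included in this comparison. The whole protein of the parent was encoded by 33 members, all of which were above 0 in both libraries, and 29 of which reached 1 FPKM. Of the 160 members whose longest open reading frame covered at least 90% of the parent's codons, 67 reached 1 FPKM, against 12 of 132 with a shorter one. These measures are not independent, since a copy with few mismatches shares more windows and more often keeps the reading frame.

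The 16 members that reached 1 FPKM without sharing a window with their parent were lower. Rps10-ps1 had 19.06 and 15.95 FPKM in the control and deletion libraries, and Rpl39-ps had 12.96 and 22.02, although only 2 windows fit into Rpl39-ps. The other 14 stayed under 10 FPKM in both libraries. Of these 14, some lie inside introns of other genes on the same strand: Rps15a-ps6 in Nudcd3 (4.98 and 9.52 FPKM), Rpl18-ps1 in Ctla4 (1.21 and 1.70), Rpl13-ps1 in Usp32 (1.21 and 1.24) and Rps12-ps26 in Nol11 (1.38 and 0.713). Rpl18-ps1 and Rpl13-ps1 are annotated on the strand opposite to that of their parent's message. Over all 300, 26 lie in an intron of a gene on the same strand, 60 in one on the other strand, 10 overlap an exon of another gene, and 208 lie in no other annotated gene, of which 41 reached 1 FPKM.

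The highest pseudogene was Rps12-ps3 on chromosome 19, within an intron of Pdzd8 on the other strand, and annotated as protein-coding. It was listed at 695 FPKM in the control (5966 fragments) and 967 in the deletion library (8042 fragments). Rps12, its parent, encodes a small-subunit protein and was at 343 FPKM (12071 fragments) and 501 (17095 fragments). All 345 windows of Rps12-ps3 are in Rps12, and both were higher in the deletion library, by 0.48 and 0.55 on the log2 scale. The parent holds more fragments and yet the lower FPKM, because all its annotated exons together are longer.

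Rps10-ps2 came next with 676 FPKM (5825 fragments) in the control and 738 (6165 fragments) in the deletion library. Its parent Rps10 was listed at only 5.48 FPKM (220 fragments) and 5.601 (218 fragments). The pseudogene thus took 96.4% of the fragments on the pair in the control and 96.6% in the deletion library (exact 95% intervals 95.9 to 96.8 and 96.11 to 97.02). Of its 347 windows, 243 are also in Rps10 and 104, those over the substitutions shown above, are its own. The exons of Rps10 overlap those of a read-through gene, RPS10-NUDT3, which was listed at 0 in both libraries. How the authors' counting treated reads on both was not stated. Rps10-ps1, with 6 substitutions and no shared window, had 164 and 133 fragments.

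Rpl21-ps15 also stood above its parent. It had 417 FPKM (3497 fragments) and 461 (3749 fragments), while Rpl21, a large-subunit gene, had 42.1 (2489 fragments) and 35.4 (2025 fragments). The copy encodes the whole Rpl21 protein, shares 186 of 334 windows with it, and differs by T336C, G378A and T432C in the coding sequence. Together with Rps10-ps1 and the pair above, it made up the 4 members with an FPKM over the parent's in each library. By fragments, 2 members exceeded their parent, Rps10-ps2 and Rpl21-ps15.

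The rest of the 15 highest were below their parents. Rpl14-ps1 had 579 and 689 FPKM in the control and deletion libraries, against 614 and 724 for Rpl14. Rpl17-ps3 had 392 and 449 FPKM and Rpl17-ps10 had 240 and 338, while Rpl17 was at 627 and 635. Rpl3-ps1, at 460 and 366 FPKM, was the only 1 of the 15 that was lower in the deletion library. The other 8 large- and small-subunit copies were Rps16-ps2, Rpl9-ps6, Rpl31-ps8, Rps2-ps13, Rpsa-ps10, Rpl38-ps2, Rpl28-ps1 and Rps6-ps4, each between 113 and 301 FPKM in each library. Of these 8, the copies of Rps16, Rpl31, Rpl38, Rpl28 and Rps6 match the parent in every window.

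**Figure D2:**
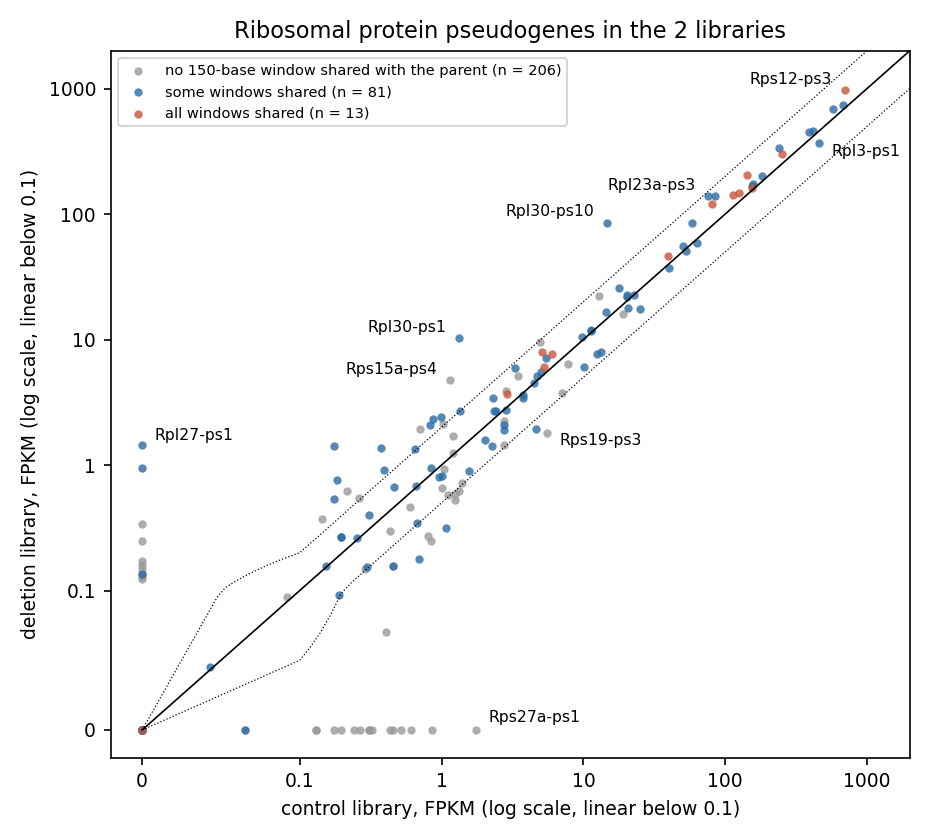
FPKM of each of the 300 pseudogenes in the control library (horizontal axis) and the deletion library (vertical axis), both on log scales that are linear below 0.1. Colour gives the share of 150-base windows also found in the parent, the solid line is equality and the dotted lines are a plain 2-fold ratio; Rpl30-ps10 and Rpl30-ps1 lie farthest above the lines among members with 50 or more fragments in a library, and Rps19-ps3 lies below.

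The pseudogenes were compared between genotypes by ratios. These were taken as the difference of log2(FPKM + 1), deletion minus control, which understates changes of low genes. The median over the 80 members at 1 FPKM or more was 0.15, with 53 above 0 and 27 below. Over all 12325 genes at that level the median was −0.01, over the 83 cytosolic ribosomal protein genes 0.21 (73 above 0), and over the 633 other processed pseudogenes 0.15. At least 2-fold differences were found in 4 of the 80 members, 3 higher and 1 lower in the deletion library. The background over all genes at that level was 5.86%, with 2.47% higher and 3.38% lower, so the members' 5.0% was near it. At 1.5-fold, 21 of the 80 differed (26.2%), 14 higher and 7 lower, against a background of 11.8% over all genes, with 5.74% higher and 6.08% lower. On this scale none of the 83 ribosomal protein genes reached 2-fold, against 16.6% of the other processed pseudogenes. Without the added 1 FPKM, Rpl24 of that list was 2.06-fold higher, at 2.51 and 5.19 FPKM (45 and 90 fragments). The copies of large-subunit genes had a median of 0.20 (45 members) and those of small-subunit genes 0.09 (35 members). The size of the members' median depended on the scaling. It was 0.08 when mitochondrially encoded genes were left out of the scaling, and 0.00 after rescaling both libraries to the same FPKM total, with −0.07 and −0.15 over all genes.

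The 3 members at least 2-fold higher were Rpl30-ps10, Rpl30-ps1 and Rps15a-ps4. Rpl30-ps10 had 14.6 FPKM (88 fragments) in the control and 85.2 (498 fragments) in the deletion library, a log2 FPKM ratio of 2.55 with a counting interval of 2.22 to 2.89, or 1.71 to 3.41 with fragments divided by 6. Rpl30-ps1 had 1.32 FPKM (8 fragments) and 10.2 (60 fragments), with an interval of the log2 ratio of 1.88 to 4.23, or 0.55 to 8.81 when divided by 6. Rps15a-ps4, a transcribed pseudogene of a small-subunit gene on chromosome 4, had 1.15 FPKM (10 fragments) and 4.73 (40 fragments). Its interval of 1.02 to 3.21 widened to −0.54 to 5.16 when divided by 6. Rps15a, its parent, was at 86.3 and 106 FPKM, and the 2 genes share no window. Some windows of Rps15a-ps4 do occur in another annotated gene, so not all are its own.

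The parent of both Rpl30 copies was at nearly the same level in both libraries. Rpl30 was listed at 144 FPKM (7569 fragments) in the control and 142 (7242 fragments) in the deletion library. Rpl30-ps8 had 0.834 and 2.07 FPKM (5 and 12 fragments) and Rpl30-ps9 had 0.667 and 0.344 (4 and 2 fragments). Gm12191, whose only difference from Rpl30 is G96A, had 35.9 FPKM (217 fragments) and 180 (1056 fragments), a log2 ratio of 2.33 with a counting interval of 2.12 to 2.55. The 9 Rpl30 pseudogenes and Gm12191, 10 copies in all, have A at coding position 96, where the reference Rpl30 has G. No window over that base is therefore found in the parent. Of the 198 windows of Rpl30-ps10, 102 are in Rpl30, 178 are in at least 1 other gene, Gm12191 and Rpl30 included, and 20 are its own. Of the fragments on Rpl30 and the 9 pseudogenes, without Gm12191, the pseudogenes took 1.37% in the control (exact 95% interval 1.12 to 1.65). In the deletion library they took 7.33% (6.76 to 7.93). Which base the mice of each library carry at this position in Rpl30 was not tested, as reads are not used here.

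Both Rpl3 copies were lower in the deletion library. Rpl3-ps1 had 460 FPKM (9678 fragments) and 366 (7460 fragments), a log2 ratio of −0.33 with an interval of −0.37 to −0.29, or −0.44 to −0.22 when divided by 6. Rpl3-ps2 had 13.3 FPKM (280 fragments) and 8.02 (164 fragments), with an interval of −1.01 to −0.44, or −1.49 to −0.04 when divided by 6. Rpl3 was at 533 FPKM (29413 fragments) in the control and 581 (31090 fragments) in the deletion library. The share of the family's fragments on these copies was 25.3% in the control (24.9 to 25.7) and 19.7% in the deletion library (19.3 to 20.1). Both copies have C at coding position 786, where Rpl3 has T, and Rpl3-ps1 has C57A as its only other coding difference.

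**Figure D3:**
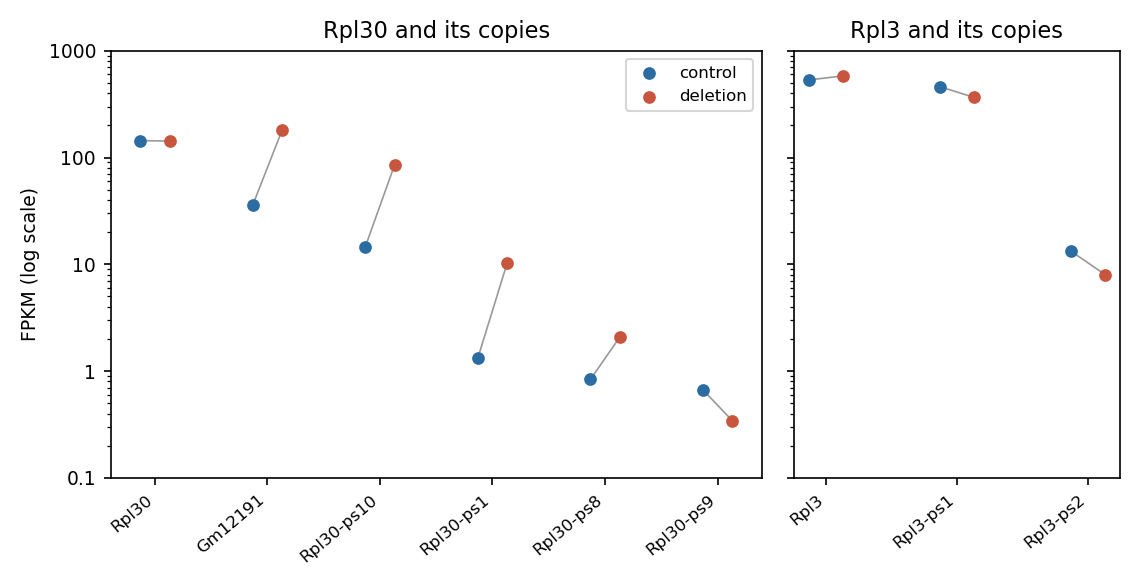
FPKM on a log scale in the control (blue) and deletion (red) library for Rpl30 and 5 of its copies (left) and for Rpl3 and both its copies (right), with 1 library per point. Rpl30 is nearly level at 144 and 142 FPKM while Gm12191, Rpl30-ps10 and Rpl30-ps1 are higher in the deletion library, and both Rpl3 copies are lower while Rpl3 is higher.

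The 1 member at least 2-fold lower was Rps19-ps3, a copy of a small-subunit gene with no window in common with its parent. It had 5.54 FPKM (41 fragments) in the control and 1.81 (13 fragments) in the deletion library, with an interval of the log2 ratio of −2.64 to −0.68 that reached from −5.07 to 0.63 when divided by 6. Rps19 was at 216 and 235 FPKM. Low ratios among the members at 1 FPKM or more were also those of Rps13-ps4 (4.67 and 1.95 FPKM), Rpl3-ps2, Rps15a-ps7 (10.1 and 6.06) and Rpl21-ps10 (12.5 and 7.67). Of these and Rps19-ps3, Rpl3-ps2 was the only 1 whose interval left out 0 when fragments were divided by 6. Their parents Rps13, Rpl3 and Rps15a were higher in the deletion library, by 0.18, 0.13 and 0.30 on the log2 scale, and Rpl21 was lower by −0.25. After the 3 members past 2-fold, the highest ratios were those of Rpl23a-ps3 (76.0 and 139 FPKM, 618 and 1092 fragments), Rpl35a-ps3 (0.864 and 2.32 FPKM, 5 and 13 fragments) and Rps15a-ps6 (4.98 and 9.52 FPKM). Rpl23a, a large-subunit gene, was at 444 FPKM (6533 fragments) and 683 (9747 fragments), so it and Rpl23a-ps3 were both higher, by 0.62 and 0.87.

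Each pseudogene's ratio was also set against its parent's. Of the 80 members, 41 had a log2 ratio above the parent's and 39 below it, and 53 were within 0.5 of it. With at least 50 fragments in each library, 37 of 40 were within 0.5, with a median distance of 0.20. For comparison, 29 of these 40 were within 0.5 of the median of all genes, with a median distance of 0.21, and 23 were nearer to their parent than to that median. Of the 40 members with fewer fragments, 16 were within 0.5 of their parent, with a median distance of 0.62. Among members with at least 50 fragments in each library, 3 were farther than 0.5 from their parent: Rpl30-ps10, Rpl3-ps2 and Rps26-ps1. The last is a transcribed pseudogene at 25.2 and 17.6 FPKM whose parent was higher in the deletion library by 0.23. Across the 80 members the Pearson correlation of the copies' ratios with the parents' was 0.02 and Spearman's was 0.10, described only, since copies and parents can share reads and several members share 1 parent.

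**Figure D4:**
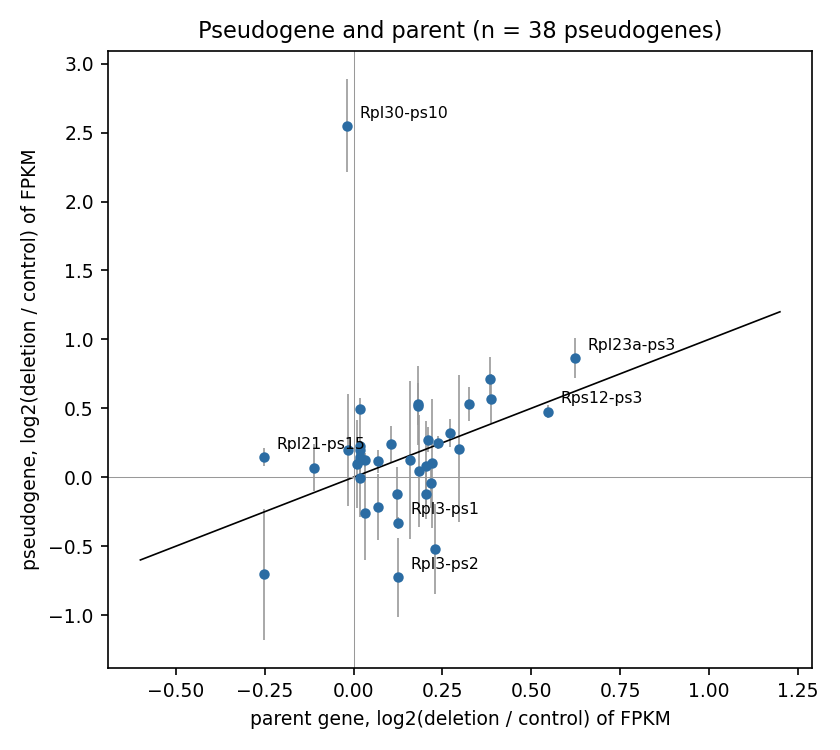
Log2 ratio of FPKM, deletion over control, of each parent (horizontal axis) and pseudogene (vertical axis) for the 38 members with at least 50 whole fragments in each library; bars are 95% counting intervals and the line is equality. Rpl30-ps10 lies at 2.55 above a parent at −0.02, and the Rpl3 copies lie below it.

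Parent and copies were also added. Their sum of fragments does not depend on how reads were split among the genes added, provided each was counted once. Copies with other symbols were left out of the sums and shares, so reads assigned to those are not covered. For Rpl30, the copy Gm12191 that was left out held 217 and 1056 fragments, against 105 and 573 on the 9 pseudogenes. Of the 61 families with a parent in the table, 49 had a member above 0, and in the others the sum is the parent alone. Rps4l, taken as a parent here, is itself annotated as a transcribed processed pseudogene. Over the 61 families, the log2 ratio of the family sum had a median of 0.208 in FPKM and 0.205 in fragments per depth. On either scale 56 families were above 0 and 5 below. After rescaling to the same FPKM total the median was 0.06, with 43 above and 18 below. The members together held 59247 fragments in the control and 65058 in the deletion library, and the parents 943889 and 1039338. The share on pseudogenes was 5.91% (exact 95% interval 5.86 to 5.95) and 5.89% (5.85 to 5.93). In FPKM it was 14.35% and 15.06%, since copies are shorter than all annotated exons of a parent. Among the 49 families with a member above 0 and a parent, the median share was 1.37% in the control and 1.46% in the deletion library. In 9 families it was at least 10% in both libraries, and in 21 it was under 1% in both.

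The shares were compared by their counting intervals. These overlapped between libraries in 36 of the 49 families, of which 14 had under 50 pseudogene fragments in each library, lay higher in the deletion library in 7 (Rpl31, Rpl21, Rpl23a, Rpl17, Rps2, Rpl30 and Rpl34) and lower in 6 (Rps19, Rpl7a, Rpl19, Rpl3 and Rps26 among them). Among the 26 families with a mean share of at least 1%, the intervals were apart in 11. With fragments divided by 6 they were apart in 4: higher in the deletion library for Rpl21, Rpl17 and Rpl30, and lower for Rpl3. In the Rpl21 family the share was 60.3% in the control and 66.4% in the deletion library, and in the Rpl17 family 30.6% and 35.0%. In the Rps12 family it was 33.5% and 32.3%, in the Rpl14 family 27.2% and 27.3%, and in the Rpl9 family 19.8% and 20.8%.

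**Figure D5:**
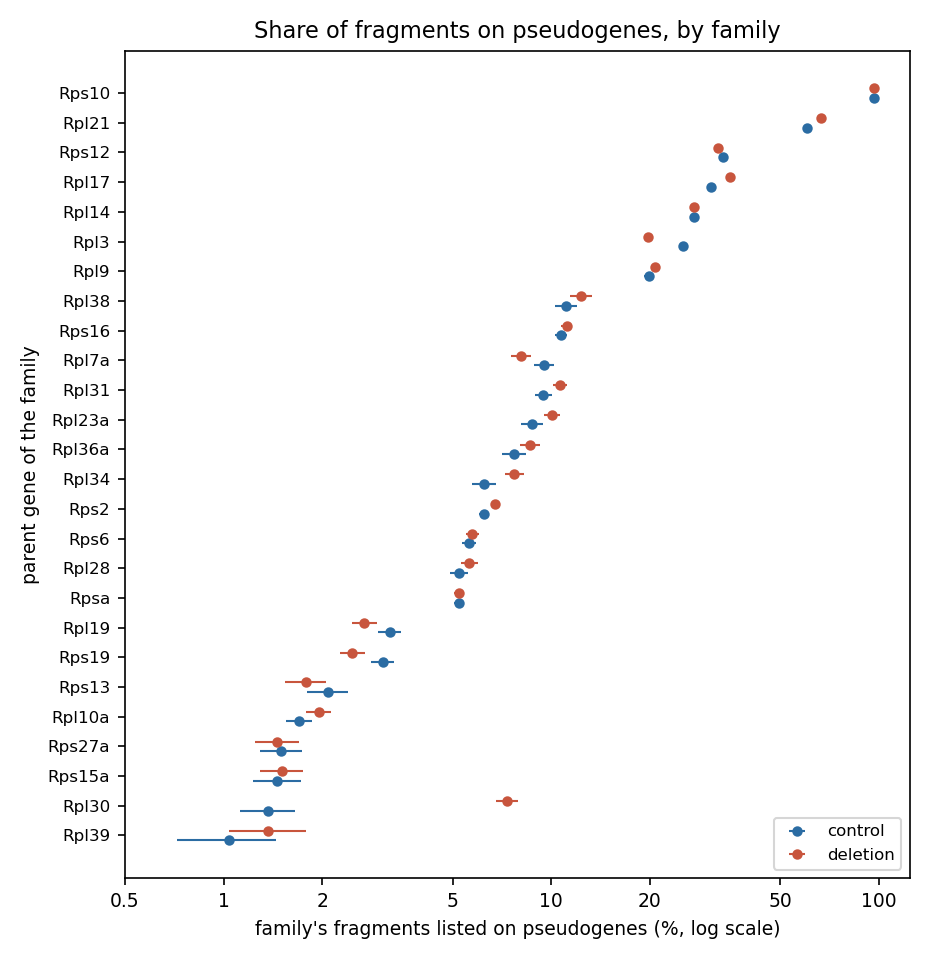
Share of a family's fragments listed on its pseudogenes (percent, log scale) in the control (blue) and deletion (red) library for the 26 families with a mean share of at least 1%; bars are exact 95% binomial intervals for counting error. Rps10 is highest near 96% in both, and Rpl30 shows the widest gap on this log axis, 1.37% against 7.33%.

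The 5 largest families are described one by one. Of the 24 Rpl31 copies 9 were above 0 and only Rpl31-ps8, identical to the parent in all 229 windows, reached 1 FPKM (142 and 205, 930 and 1304 fragments). Of the 24 Rps12 copies, 15 of them on the X chromosome, 8 were above 0 and 5 reached 1 FPKM: Rps12-ps3, Rps12-ps9 (5.48 and 7.14), Rps12-ps4 (4.49 and 4.49), Rps12-ps24 (3.47 and 5.14) and Rps12-ps26. Rps12-ps4 overlaps an exon of Nphs1 on the other strand, and whether the counting used strand is not given in the sources used here. Of the 15 Rpl21 copies 8 were above 0 and 3 reached 1 FPKM. Of the 14 Rpl23a copies 2 were above 0, and Rpl23a-ps3 alone reached 1 FPKM. Of the 14 Rps19 copies 6 were above 0 and 3 reached 1 FPKM, with Rps19-ps6 highest at 63.7 and 58.7 FPKM (485 and 433 fragments).

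Among the annotated classes, 4 of 6 protein-coding members and 4 of 7 transcribed pseudogenes reached 1 FPKM. Besides Rps12-ps3 and Rpl9-ps6, the coding members Rpl36a-ps1 (2.31 and 3.44 FPKM) and Rpl10-ps3 (2.32 and 2.71) were low, and Rpl9-ps1 and Rpl36-ps4 were at 0 in both libraries. Rpl19-ps11 on chromosome 8 (52.7 and 51.1 FPKM, 541 and 509 fragments) overlaps an exon of Gm27288 on the same strand, so reads on the 2 genes cannot be told apart. It differs from Rpl19 by G191A, and 292 of its 442 windows are in the parent, which stood at 953 and 1108 FPKM.

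Members listed at 0 in one library and above 0 in the other were nearly all at a few fragments. There were 28 of 148, 17 in the control alone and 11 in the deletion library alone. Over all genes above 0 in a library the background was 25.6%, with 20.8% in the control alone and 4.83% in the deletion library alone. At least 10 fragments were reached by 1 member in each direction, Rps27a-ps1 with 14 fragments (1.74 FPKM) in the control and Rpl27-ps1 with 10 (1.46 FPKM) in the deletion library. Divided by 6, these are 2.33 and 1.67, under the 3 counts that a count of 0 allows, so no fold is given. The 14 fragments are from the control library, where the most frequent fragment number was 1 and not 6. In the control alone, Rpl23a-ps2 had 7 fragments, Rpsa-ps11 5, and Rpl31-ps6 and Rpl29-ps1 4 each. In the deletion library alone, Rpl31-ps12 had 6 and Rps6-ps2 had 2, and with fragment numbers piled up at 6 in that library how many original molecules these stand for was not tested.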

How the data were processed

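RNA of HSCs was sequenced as 150 bp paired-end reads, per the labels' protocols, and the authors deposited 1 table of FPKM per gene for both libraries. The submitters' processing notes name Bowtie 0.12.2 and, as genome build, mm8, without a role for either. The counter, its annotation, and how it treated strand and reads that fit several places were not stated (not given in the sources used here). That treatment decides how fragments are split between a parent and its copies. Coordinates, exon lengths and transcripts are those of GENCODE M21 on GRCm38, not of mm8, and all 300 members matched by gene ID.

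Fragments were recovered from the deposited FPKM by exon length. Within 0.02 of a whole number lay 96.5% of 21882 values in the control and 96.1% of 18210 in the deletion library. Rpl9-ps6, Rpl21-ps8, Rpl27-ps3 and Rpl21-ps7 did not, and have no interval of their ratio. Among the parents, Rpl17 and Rps18 did not either. Family sums and the intervals of their shares include these values, rounded to whole fragments. Each member was aligned to its parent's coding transcripts (Biopython 1.88, local alignment). Ratios used a pseudocount of 1 FPKM, a minimum mean of 1 FPKM and a threshold of 2-fold, and intervals are exact at 95% (scipy 1.17.1) for counting error only. With 1 library per genotype no test was run. Depth recovery, calls and alignment were tested on simulated data. The simulated counts had no pile-up at 6 fragments like that of the deletion library, so that case was not tested.

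Named members are the 15 highest, the 6 highest and 6 lowest ratios, the 5 with most fragments among those at 0 in the other library in each direction, members of the 5 largest families, and members overlapping another gene's exon at a mean of 5 FPKM or more. Gm12191, the Rpl30 and Rpl3 copies beyond that rule, and the members without shared windows were chosen after their values were seen. Some members that the rule names are not reported here. The members and lists were chosen with earlier results of these data known.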

Additional observations from a re-analysis of the deposited data

How the results depend on the processing

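The median log2 ratio of the 80 members stayed between 0.10 and 0.18 under pseudocounts of 0.1 and 5 FPKM, a minimum mean of 5 FPKM, a minimum of 20 fragments, trimmed-mean scaling, centring on all genes, members with a window of their own, members annotated as pseudogenes, the mean in place of the median, and without the Rpl30 family. It was 0.073 with no minimum level (148 members), 0.077 with scaling that left out mitochondrially encoded genes, and 0.002 after rescaling to a common total, where the median over all genes was −0.152. That rescaling brought the median of the family sums from 0.208 to 0.06, and the log2 ratio of Rps10-ps2 from 0.127 to −0.021. The count of members at least 2-fold different, 4, was 9 with a pseudocount of 0.1 FPKM (11.2% of members, 8.68% of all genes), 2 with one of 5 FPKM (2.5%, 1.56%), 7 with no minimum (4.73%, 4.83%), 2 with a minimum mean of 5 FPKM (4.08%, 2.35%), 21 at 1.5-fold (26.2%, 11.8%) and 2 at 4-fold (2.5%, 1.95%). Without the Rpl30 family, a choice made after the data were seen, it was 2 of 77 (2.6%, against 5.86% of all genes). The 28 members at 0 in one library fell to 2 when 10 fragments were asked of the other. The share of fragments on pseudogenes was 14.35% and 15.06% when FPKM replaced fragments. The cause of these moves was not tested. Below about 50 fragments the ratio of a single member is limited by depth. No paired analysis was possible because there was 1 library per genotype.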
